A study of Caenorhabditis elegans with 2 samples.

Results

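The 300 strongest binding regions of FOS-1 in larvae of the nematode Caenorhabditis elegans were described one by one and as a set, out of 7446 reproducible peaks in all. They were selected on signal value, the strength that the authors' peak caller gave each call, as the 300 highest in the list on genome build ce11 thresholded by irreproducible discovery rate (IDR), which scores how well peak ranks agree between replicates. The data are from ChIP-seq, in which DNA bound by a protein is recovered with an antibody and sequenced, on pooled male and female whole L2 larvae, in 2 biological replicates of 1 group with no second group to compare. All worms were of strain OP304 (unc-119(ed3) III; wgIs304), which carries an insertion of fos-1 fused to eGFP. The labels give the antibody as fos-1 and the target as eGFP-fos-1. The tagged gene is a transgene added to the worm's own fos-1, so the total amount of FOS-1 may not be that of unmodified larvae. All tissues of pooled larvae enter each library, so the cells in which a region was bound are not known from these data.

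FOS-1 is the worm member of the Fos family of basic leucine zipper (bZIP) proteins. Fos proteins bind DNA as dimers with Jun or related bZIP proteins, classically at the AP-1 site, and in the worm fos-1 is best known for its role in the gonadal anchor cell, which breaches the basement membrane before the vulva forms. GATA factors such as ELT-2, which bind a different short sequence, control most genes of the intestine.

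The windows below span 50 bp on both sides of a summit and show, among regions on chromosomes II to V and X, the strongest with each of the sites that were searched. Capitals mark the site named for each window in the sentences that follow, and other sites in a window stay in lower case. In the cebp-1 window they mark GACGCAGA on both strands, in the jun-1 window 2 adjacent GATA sites and TGACTCA, and in the Y37A1A.2 window the reverse complement of TGATAAG. In the vhp-1 window they mark GAGAGAG, in the vps-60 window the CRE site TGACGTCA, in the nhr-50 window the C/EBP-type palindrome and in the F57B1.6 window the E-box CACGTG. The cdc-48.1 window is the strongest with none of these sites. The rpl-3 window was added after the data were seen, and its capitals mark TACGGTA and CGAGTGT, which recur in other regions beside ribosomal protein genes. All were read from the RefSeq sequence of WBcel235, the assembly that ce11 names.
cebp-1 window, chrX:1454599-1454699, plus strand: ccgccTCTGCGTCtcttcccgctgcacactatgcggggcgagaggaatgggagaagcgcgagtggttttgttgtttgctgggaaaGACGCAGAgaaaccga
jun-1 window, chrII:9113071-9113171, plus strand: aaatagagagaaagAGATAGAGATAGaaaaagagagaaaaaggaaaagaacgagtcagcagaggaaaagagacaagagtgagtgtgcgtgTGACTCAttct
Y37A1A.2 window, chrIV:13919361-13919461, plus strand: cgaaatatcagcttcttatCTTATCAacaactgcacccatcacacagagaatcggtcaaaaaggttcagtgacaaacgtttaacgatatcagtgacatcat
vhp-1 window, chrII:5336993-5337093, plus strand: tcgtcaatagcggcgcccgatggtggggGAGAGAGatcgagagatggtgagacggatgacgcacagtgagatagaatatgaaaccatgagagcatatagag
vps-60 window, chrV:8606416-8606516, plus strand: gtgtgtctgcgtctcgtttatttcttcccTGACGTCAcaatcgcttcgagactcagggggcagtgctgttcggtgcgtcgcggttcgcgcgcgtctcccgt
nhr-50 window, chrV:16000608-16000708, plus strand: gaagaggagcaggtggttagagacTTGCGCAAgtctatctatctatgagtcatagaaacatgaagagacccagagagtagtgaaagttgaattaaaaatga
F57B1.6 window, chrV:13212720-13212820, plus strand: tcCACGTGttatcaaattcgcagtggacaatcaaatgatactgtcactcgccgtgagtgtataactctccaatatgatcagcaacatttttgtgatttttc
cdc-48.1 window, chrII:10563526-10563626, plus strand: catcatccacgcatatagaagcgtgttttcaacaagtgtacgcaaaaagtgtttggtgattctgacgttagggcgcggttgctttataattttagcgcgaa
rpl-3 window, chrIII:3867528-3867628, plus strand: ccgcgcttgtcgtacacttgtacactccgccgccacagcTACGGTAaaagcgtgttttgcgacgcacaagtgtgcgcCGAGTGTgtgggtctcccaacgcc

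The next lines align the AP-1 sites of 26 regions, the sequence a Fos and Jun dimer is known to bind. Each line has TGACTCA in capitals with 10 bases on both sides, read on the strand that spells it so, at the copy nearest the summit.
jun-1, chrII:9113151-9113177, plus strand: agtgtgcgtgTGACTCAttctcggggc
rib-2, chrIII:10742623-10742649, plus strand: gggacgagaaTGACTCAtttgccgcgg
C07H4.1, chrII:9094632-9094658, plus strand: ggggagagagTGACTCAattatgagtc
rom-1, chrIII:4906584-4906610, minus strand: agtgtgtagaTGACTCActggcggtat
F20D1.3, chrX:14975841-14975867, plus strand: aacaacatgcTGACTCAtcgtgccttt
unc-112, chrV:14696928-14696954, plus strand: tcttcgtctcTGACTCAcagcaacacc
ncr-1, chrX:4478662-4478688, plus strand: agttgtctacTGACTCAcacatgcata
rme-1, chrV:6214083-6214109, plus strand: gcggctatgaTGACTCActtggtttca
nhr-50, chrV:16000643-16000669, minus strand: catgtttctaTGACTCAtagatagata
alx-1, chrIII:9956885-9956911, plus strand: gcagcatcgaTGACTCAtcactcgtat
dmd-8, chrV:333864-333890, plus strand: ttttctcgggTGACTCAggattcaggt
C18B2.4, chrX:3605884-3605910, plus strand: tagccaacacTGACTCAcgaccccgag
dyn-1, chrX:15568532-15568558, plus strand: actgcgaggcTGACTCActgcggtcat
Y75B8A.28, chrIII:12317711-12317737, plus strand: tatcagttatTGACTCAtttttcttaa
clc-1, chrX:11047313-11047339, plus strand: caaaactcgcTGACTCAcaaagaattt
Y38H6C.24, chrV:20526275-20526301, plus strand: tctttccaggTGACTCActtgtttagg
nmy-1, chrX:2906497-2906523, plus strand: cttccactcaTGACTCAtaaaatatgc
epg-6, chrIII:10599932-10599958, minus strand: gagaaagaaaTGACTCAacgcaggatg
F35E12.9, chrV:13745113-13745139, minus strand: acaaaaattcTGACTCAaccaacccac
act-2, chrV:11078606-11078632, minus strand: aaggaaaagaTGACTCAacatgacggt
abt-4, chrV:332851-332877, minus strand: gttcaataatTGACTCAcatccccaga
elo-3, chrIV:7235851-7235877, plus strand: cgcccatctcTGACTCAttctcggttt
F21G4.1, chrX:9892500-9892526, minus strand: ttgcgtgagaTGACTCActtttttttg
nhr-137, chrX:6667699-6667725, minus strand: aattccaataTGACTCAgttcagcata
F43E12.1, chrX:7181835-7181861, minus strand: tatgaattgaTGACTCAcgcgcattgt
jun-1, chrII:9127104-9127130, plus strand: tacacacaaaTGACTCAccgcctcttt

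The last set aligns GCGCAGGG, a sequence picked out after the summit windows had been inspected, in all 11 of the regions that hold it within 50 bp of the summit. It is part of the motif known as MEX (motif enriched on X), which marks the X-chromosomal sites that recruit the dosage compensation complex of the worm.
W02H3.3, chrX:11094216-11094243, minus strand: ggaaccattcGCGCAGGGacacctcact
gtr-1, chrX:806664-806691, plus strand: tgcgattatcGCGCAGGGgtgtttgttg
F20B6.9, chrX:4209256-4209283, minus strand: tgccgctatcGCGCAGGGacacctcttt
nspc-17, chrX:14525890-14525917, minus strand: attgcctatcGCGCAGGGacagatgtgg
mom-1, chrX:6296538-6296565, plus strand: tttacatttgGCGCAGGGggtcaccata
Y41G9A.17, chrX:2997113-2997140, minus strand: taaatttatcGCGCAGGGaggaagtagc
F22H10.2, chrX:16682162-16682189, minus strand: agaaaacatcGCGCAGGGaacatcaaat
xol-1, chrX:8036391-8036418, minus strand: attttttatcGCGCAGGGacgtatgtcg
ins-39, chrX:1345046-1345073, plus strand: aatgtcattcGCGCAGGGcagctgagcc
sma-2, chrIII:8749664-8749691, plus strand: gataacggggGCGCAGGGacacaagttg
T24D8.6, chrX:2364889-2364916, minus strand: aaataattaaGCGCAGGGatatatagta

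The signal of the 300 regions ran from 702 at rank 1 to 179.2 at rank 300, with a median of 213.8, against a median of 64.5 over all 7446 IDR peaks. These values chose the regions and are given as a description. The regions just inside the limit were nearest to epg-9, which encodes an autophagy protein, with a signal of 179.3, and to R13H4.5 with 179.2. The peaks just outside it were nearest to adk-1, an adenosine kinase gene, with 179.1, and to cbp-1, which encodes a histone acetyltransferase of the CBP/p300 family, with 179.0. The read depth of the libraries is not known from these lists. The regions had a median width of 237 bp, against 344 bp over all IDR peaks, and 91.7% of them were narrower than 344 bp, against 18.3%. Both quartiles of the width of all IDR peaks were also 344 bp, so most peaks carry this same value. The contrast in width need not reflect the extent of binding.

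**Figure D1:**
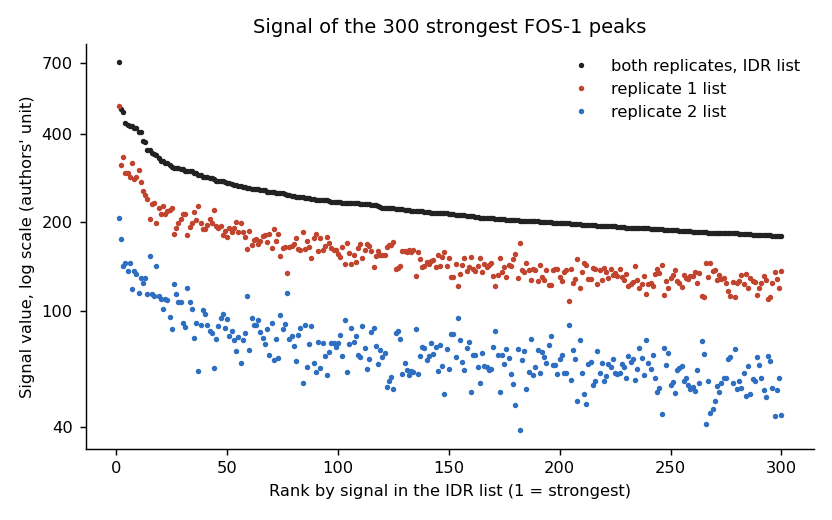
Signal value of each of the 300 regions (log scale) against its rank in the IDR list, in the IDR list and in the strongest overlapping call of each replicate. The values in the IDR list fall from 702 to 179.2, and at every rank the value of replicate 1 lies above that of replicate 2, on scales that the authors did not normalize between lists.

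Each of the 300 regions overlapped a call in the relaxed list of both replicates, which held 29339 calls in replicate 1 and 28938 in replicate 2. The IDR list was made from both replicates, so their agreement on its strongest peaks is in part set by the choice. The rank of the strongest overlapping call had a median of 150.5 and a lowest place of 492 in replicate 1, and a median of 156.5 and a lowest place of 1097 in replicate 2. The 300 strongest calls of both replicates covered 214 regions, or 71.3% (95% Wilson interval 66.0 to 76.2), against 2.94% of all IDR peaks. The best 1000 calls of both covered 299 regions, against 9.70% of all IDR peaks, and the exception was K02C4.5. These shares over all IDR peaks could not be high, since only 300 or 1000 calls of each replicate can be matched. They also include the 300 regions themselves. Intervals here and below run over peaks and cover counting error only.

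The summits of the replicates lay close together. Their distance had a median of 16 bp over the 300 regions and was at most 50 bp in 282 of them, against a median of 26 bp over all IDR peaks, 75.8% of which were within 50 bp. The ratio of replicate 1 to replicate 2 signal had a median of 2.13 over the 300 regions, with a range of 1.17 to 4.35, against a median of 2.19 over all IDR peaks.

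The regions with the largest ratio between their ranks in the replicates were not of a single kind. K02C4.5, a gene with a sequence name alone, had rank 80 in replicate 1 and rank 1097 in replicate 2, with signals of 169.9 and 39.1. rom-1, a rhomboid protease gene of epidermal growth factor signalling, had ranks 18 and 240, and unc-112, the kindlin gene of muscle attachments, had ranks 22 and 222. Y48G10A.3 with ranks 147 and 968 and C18B2.4 with ranks 54 and 328 were also stronger in replicate 1. Stronger in replicate 2 were let-526, an ARID-domain gene of the SWI/SNF chromatin remodeller, with rank 214 in replicate 1 and 18 in replicate 2, and rpl-15, a ribosomal protein gene, with ranks 30 and 3. They were joined by egg-5 with ranks 492 and 51, Y39B6A.5 with ranks 335 and 40, and W02H3.3 with ranks 39 and 6. The regions were picked for the ratio between their ranks, which favours high ranks over larger differences lower in the lists, so no test was made.

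**Figure D2:**
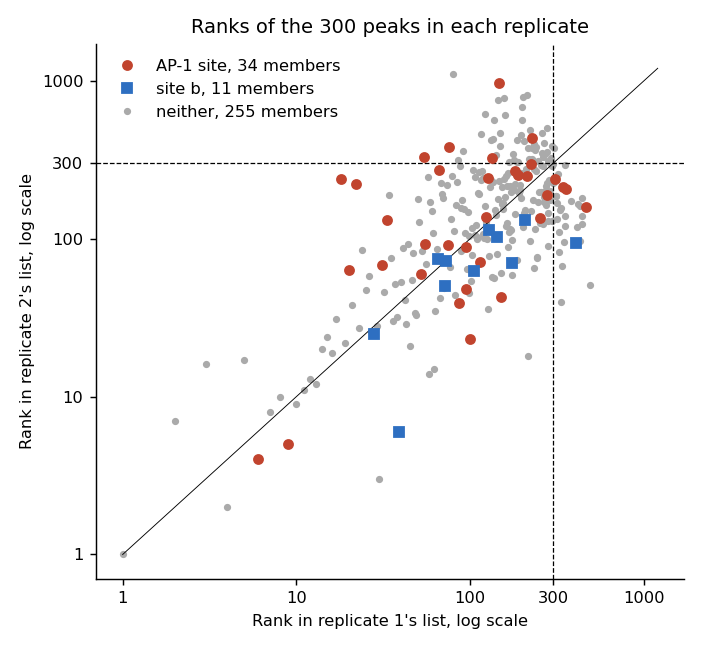
Rank of each of the 300 regions in the list of replicate 1 (x axis) and replicate 2 (y axis), both on log scales, with dashed lines at rank 300 and a line of equal rank. Circles mark the 34 regions with an AP-1 site and squares the 11 with GCGCAGGG (site b), of which 10 lie below the line, that is, rank higher in replicate 2.

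Most of the strongest regions had their summit around a gene start, at a share near that of all IDR peaks. A promoter window was taken to reach 1000 bp before and 250 bp after any start of a protein-coding transcript, and it held the summit of 180 regions or 60% (54.4 to 65.4), against 56.7% of all IDR peaks. Outside these windows, 76 summits or 25.3% (20.7 to 30.5) were intergenic, against 22.7%, and 33 or 11% (7.94 to 15.05) were in introns, against 15%. The other 11 were 5 in coding exons, against 1.77% of all IDR peaks, and 6 within genes that do not code for protein, against 2.48%. No summit outside promoter windows was in an untranslated exon, which allows a share of up to 1.26% (Wilson), while 75 summits of the whole list were in 3' and 24 in 5' untranslated exons. The summit was upstream of the nearest start in 232 regions. The signed distance from that start to the summit, negative upstream, had a median of -207 bp, against -188 bp over all IDR peaks. Without sign, this distance had a median of 428 bp (95% interval of the median 320 to 597), against 564 bp over all IDR peaks. Its upper quartile was 1685 bp, against 1652 bp over all IDR peaks. The summit lay more than 2000 bp from any start in 66 regions. In 43 regions or 14.3% (10.8 to 18.8) a second gene started on the other strand within 1000 bp, against 11.3%.

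**Figure D3:**
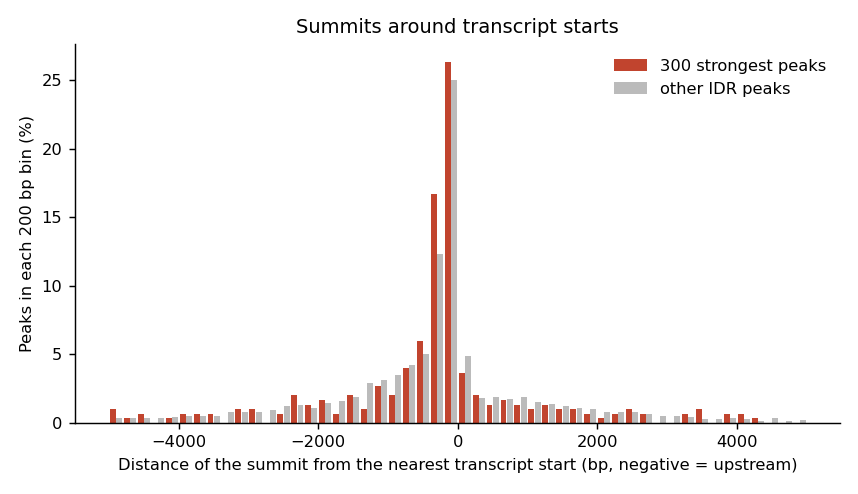
Share of the 300 regions and of the 7146 other IDR peaks in 200 bp bins of the distance from summit to nearest transcript start, negative values upstream. The fullest bin, from 200 bp upstream to the start, holds 26.3% of the 300 regions, or 79, and 25.04% of the others, and 17 regions and 295 others lie beyond 5000 bp and are not drawn.

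The intronic regions were led by vhp-1, the gene of a phosphatase that switches off stress MAP kinases, at rank 7. It was followed by egl-27, which encodes a nuclear protein of the MTA family, at rank 19 and T13B5.9 at rank 33. Next came pkg-2, a gene of a cGMP-dependent protein kinase, at ranks 43 and 73, and ncr-1, which encodes the worm homologue of the Niemann-Pick C1 cholesterol carrier, at rank 49. In all 33 cases the intron belonged to the gene whose start was nearest. The summits in coding exons were in F57B1.6 at rank 110, in pks-1 at rank 176, in F57C12.6 at rank 212, in hpo-34 at rank 247 and in C35E7.4 at rank 261. pks-1 encodes a polyketide synthase, and its peak lay 15192 bp from the nearest start, which was that of C41A3.2, the farthest of all 300.

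The regions were spread over all chromosomes. X held 65 of them or 21.7% (17.4 to 26.7), against 20.9% of all IDR peaks. The 300 regions had 289 different nearest genes, of which 10 were nearest to more than 1 region. jun-1, the gene of the worm Jun protein and thus of a partner of Fos, was nearest to 3 regions, the strongest at rank 4 and the weakest at rank 294. vhp-1 was nearest to the regions of ranks 7 and 147. Others with 2 regions were pkg-2, lin-1, an ETS-family transcription factor gene of vulval development, and zfp-1, the worm homologue of the chromatin factor AF10. rsks-1, which encodes ribosomal S6 kinase, asp-13, an aspartyl protease gene, and pcp-3, a gene of the prolyl carboxypeptidase family, also had 2, as did F54D1.6 and Y75B8A.28. Another of the 300 lay within 5 kb of 30 regions or 10% (7.09 to 13.9), and any other IDR peak within 5 kb of 212 regions or 70.7%, against 68.6% of all IDR peaks.

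At jun-1 the 3 summits lay at 3 different transcript starts of the same gene. The region of rank 4, chromosome II from 9112899 to 9113294, had signals of 294.3 in replicate 1 and 145.6 in replicate 2, and its summit was 36 bp upstream of the first start. The second, from 9116463 to 9116738, had 152.8 and 82.6, and its summit was 16 bp upstream of an internal start. The last, from 9127079 to 9127273, had 109.5 and 69.9, and its summit was 174 bp upstream of another. The first and last hold an AP-1 site and the second an extended GATA site, TGATAAG, in place of it.

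GATA sites were the most frequent of the searched sites, at a share of the 300 regions near that of all IDR peaks. WGATAR, where W is A or T and R is A or G, lay within 50 bp of the summit in 153 regions or 51.0% (45.4 to 56.6), against 52.9% of all IDR peaks, and 83 regions or 27.7% (22.9 to 32.99) held 2 or more, against 24.1%. Among the 600 strongest peaks the share with WGATAR was 57.5%, above that of all IDR peaks. The extended site TGATAAG, found on these peaks in earlier work, lay in 85 regions or 28.3% (23.5 to 33.7), against 22.8%. By position, GATA sites were at 72.7% of the intronic, 59.2% of the intergenic and 43.9% of the promoter regions, against 57.4% of intronic, 56.7% of intergenic and 50.02% of promoter IDR peaks. All sites were searched on both strands.

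AP-1 sites were at a larger share of the strongest regions than of the list as a whole. TGASTCA, where S is C or G, which is TGACTCA on either strand, lay in 34 regions or 11.3% (8.22 to 15.4), against 3.55% of all IDR peaks. By rank, it lay in 16 of the regions of ranks 1 to 100, 8 of the next 100 and 10 of the last 100. The site lay within 25 bp of the summit in 14 regions, within 50 bp in 34, within 100 bp in 61 and within 200 bp in 76. The same distances gave 1.63%, 3.55%, 6.20% and 8.72% of all IDR peaks. Most of the regions that had it within 200 bp thus had it within 100 bp. The site was preceded by A in 16 and by C in 11 of its 35 copies. A variant with a single change, TGAATCA, which was singled out after the windows were seen, lay in 26 other regions or 8.67% (5.98 to 12.4), against 3.25%. Together the site and its variant were at 60 regions, none of which had both. Their regions differed in other traits. The extended GATA site lay in 15 of the 26 with the variant and in 9 of the 34 with the site, against 28.3% of all 300. On X were 1 of the 26 and 9 of the 34.

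The genes beside AP-1 sites were led by jun-1 at rank 4 and by rib-2 at rank 6. rib-2 encodes a glycosyltransferase that builds heparan sulfate, and on the other strand its region also fronts tbb-1, a beta-tubulin gene. The rib-2 region, chromosome III from 10742481 to 10742789, had signals of 284.6 in replicate 1 and 145.4 in replicate 2. Below them came rom-1 at rank 37, unc-112 at rank 44, ncr-1 at rank 49 and rme-1, which encodes an endocytic recycling protein, at rank 54. Of the 34 regions, 24 or 70.6% were in promoter windows, against 60% of all 300 and 56.1% of the 264 IDR peaks with the site. A GATA site was also in 20 or 58.8%, against 51.0% of all 300 and 53.4% of the 264.

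Of the 34 AP-1 regions, 5 or 14.7% were beside the cytoskeleton and adhesion list described below, against 4.92% of the 264 IDR peaks with the site. The other named genes beside AP-1 sites have varied products. They include tba-2, an alpha-tubulin gene, at rank 59, and alx-1, the worm ALIX gene of the endosomal sorting machinery, at rank 61. inx-15 and inx-16, gap junction genes that share a region, followed at rank 78, and dyn-1, the dynamin gene, at rank 95. clc-1, a claudin-like gene, came next, nmy-1, a non-muscle myosin gene, was at rank 125, act-2, an actin gene, at rank 210, and crml-1, the gene of a regulator of actin capping, at rank 230. Transcription factor genes beside the site were nhr-50 at rank 57, dmd-8, of the doublesex family, at rank 72 and nhr-137 at rank 272. epg-6, an autophagy gene, was at rank 164. fath-1, a fatty acid hydroxylase gene, was at rank 203, abt-4, which encodes an ABC transporter, at rank 219, and elo-3, a fatty acid elongase gene, at rank 255. The other AP-1 regions were nearest to C07H4.1, F20D1.3, Y18D10A.4, C18B2.4, Y75B8A.28, Y38H6C.24, cdap-2, F35E12.9, T28F4.1, F21G4.1, Y48G10A.3 and F43E12.1.

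The remaining sites were at fewer regions. The GAGA repeat GAGAGAG lay in 25 regions or 8.33% (5.71 to 12.01), against 9.83% of all IDR peaks, and GACGCAGA, also found on these peaks in earlier work, in 22 or 7.33% (4.89 to 10.9), against 5.33%. The E-box CACGTG lay in 2 regions or 0.667% (0.183 to 2.40), against 3.98%, and these were F57B1.6 at rank 110 and Y17G7B.8 at rank 167. Among the 300 strongest calls of replicate 1 alone its share was 1%, and among those of replicate 2 alone 2.33%, both within that interval. The CRE site TGACGTCA lay in 3 regions or 1.00% (0.341 to 2.90), against 0.819%, at vps-60, a gene of the endosomal sorting machinery, xbp-1 and F02E9.5. The C/EBP-type palindrome TTRCGYAA, where Y is C or T, also lay in 3 regions, at nhr-50, F58H10.1 and cmd-1, the calmodulin gene, against 0.819%. The cebp-1 region, the strongest of all, had GACGCAGA on both strands and neither an AP-1 nor a C/EBP-type site.

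**Figure D4:**
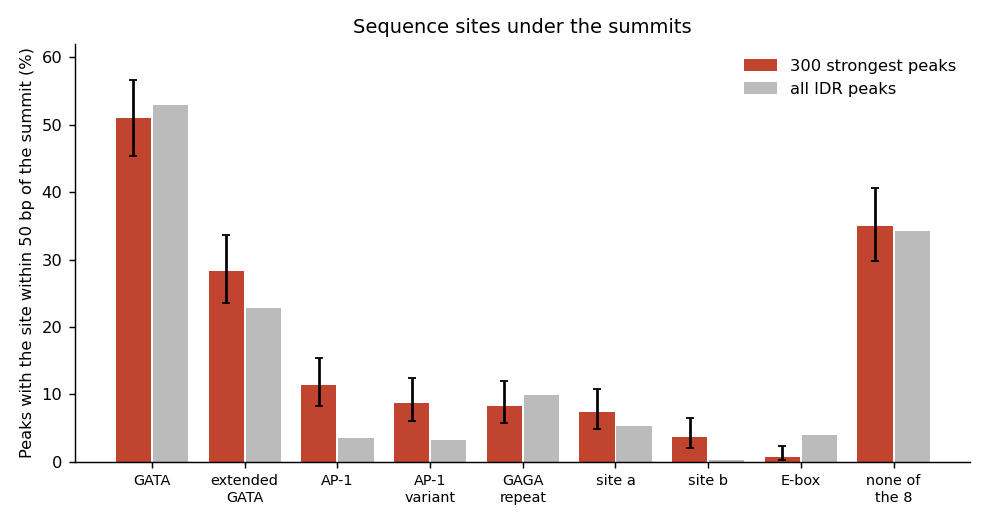
Share of the 300 regions (left bar, with 95% Wilson interval) and of all 7446 IDR peaks (right bar) with each site within 50 bp of the summit. The AP-1 variant is TGAATCA, site a is GACGCAGA, site b is GCGCAGGG, and the last pair has none of the 8 searched sites. The AP-1 site is at 11.3% and 3.55%, and the E-box at 0.667% and 3.98%.

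A total of 105 regions or 35% (29.8 to 40.6) had none of the 8 searched sites in their windows, against 34.2% of all IDR peaks. The windows of these regions had a median GC content of 47.5%, against 39.6% in the regions with a site. This contrast is in part set by the split, since WGATAR is rich in A and T. The 153 regions that hold it had a median of 37.6%. Regions with none of the sites made up 49.2% of the 65 regions on X and 31.1% of the 235 on autosomes, while over all IDR peaks the shares were 34.9% on X and 34% on autosomes. The extended GATA site had the opposite order, with 12.3% of X regions and 32.8% of autosomal ones, against 19.5% and 23.7% over all IDR peaks.

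GCGCAGGG was found mainly in X-linked regions without a searched site. Outside promoter windows it was in 7 of the 18 such regions. The sequence lay within 50 bp of 11 of the 300 summits or 3.67% (2.06 to 6.45), against 0.201% of all IDR peaks, which is 15 peaks. 10 of the 11 were on X, and 10 had none of the 8 sites. The other 4 peaks had ranks between 2256 and 6148, and the peak of rank 3745 overlaps the region of rank 83, beside Y41G9A.17. On X the genome has 81 copies of GCGCAGGG, of which 17 were inside the 300 regions and 26 inside any IDR peak. On the autosomes it has 233, of which 2 and 11 were. The 2 bases before it were TC in 8 of the 11 regions, all on X, and the base after it was A in 8. Because the sequence was singled out on these regions, the counts are a description with no test.

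The GCGCAGGG regions were mostly far from gene starts. 8 of the 11 were outside promoter windows, and the median distance to a start was 2592 bp, against 381 bp in the other 289 regions. The strongest, chromosome X from 11093945 to 11094368 with W02H3.3 nearest, had signals of 198.3 in replicate 1 and 142.3 in replicate 2, with rank 39 in replicate 1 and rank 6 in replicate 2. The next, from 806549 to 806821 with gtr-1 nearest, had 212.95 and 109.8. The region from 8036166 to 8036536 had 140.1 and 85.1, and its nearest start, 4937 bp away, was that of xol-1, the switch gene that reads the number of X chromosomes in sex determination. Others were beside mom-1, a Wnt secretion gene, in one of its introns, beside ins-39, an insulin-like peptide gene, and beside F20B6.9, nspc-17, Y41G9A.17, F22H10.2 and T24D8.6. The sole autosomal one was at the start of sma-2, a Smad gene of body size control. In 10 of the 11 the rank was higher in replicate 2, compared with 131 of all 300, and the median ratio of replicate 1 to replicate 2 signal was 1.90 in these 11 and 2.15 in the other 289.

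Among ranks 1 to 10 and 21 to 50, several genes outside the larger lists have known products. They include hum-1, a class I myosin gene, at rank 23, his-37, a histone H4 gene, at rank 28 and sir-2.2, a sirtuin gene, at rank 41.

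In the gene groups below a region counts when its nearest gene, or the gene starting on the other strand within 1000 bp, matches a list of symbols. Of 30 lists, 19 had 3 or more regions and 6 had 0, and 189 of the 300 regions matched no list. The lists with 0 regions were homeobox factors, beside 0.430% of all IDR peaks, basic helix-loop-helix factors, beside 0.483%, GATA factors, beside 0.121%, heterochronic genes, beside 0.510%, cuticle collagens, beside 0.416%, and neuropeptides, beside 0.215%. A count of 0 allows up to 1.26% (Wilson), which is above all of these. Forkhead factors had 1 region, at pha-4, against 0.416%, and Wnt, Notch, EGF and TGF-beta signalling had 1, at mom-1, against 0.658%. MAP kinase signalling had 2 or 0.667%, both at vhp-1, against 1.18%. Matrix genes also had 2, at rib-2 and sqv-3, against 0.336%, as did histones, at his-37 and hsr-9, which the list holds by its symbol, against 0.188%. For 98 regions or 32.7% the nearest gene has a sequence name alone, against 35.4% of all IDR peaks. The lists do not hold every gene of a function, so statements about a list cover its matched regions only. Regions and genes are paired by position, which does not show that a gene is controlled from the region.

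**Figure D5:**
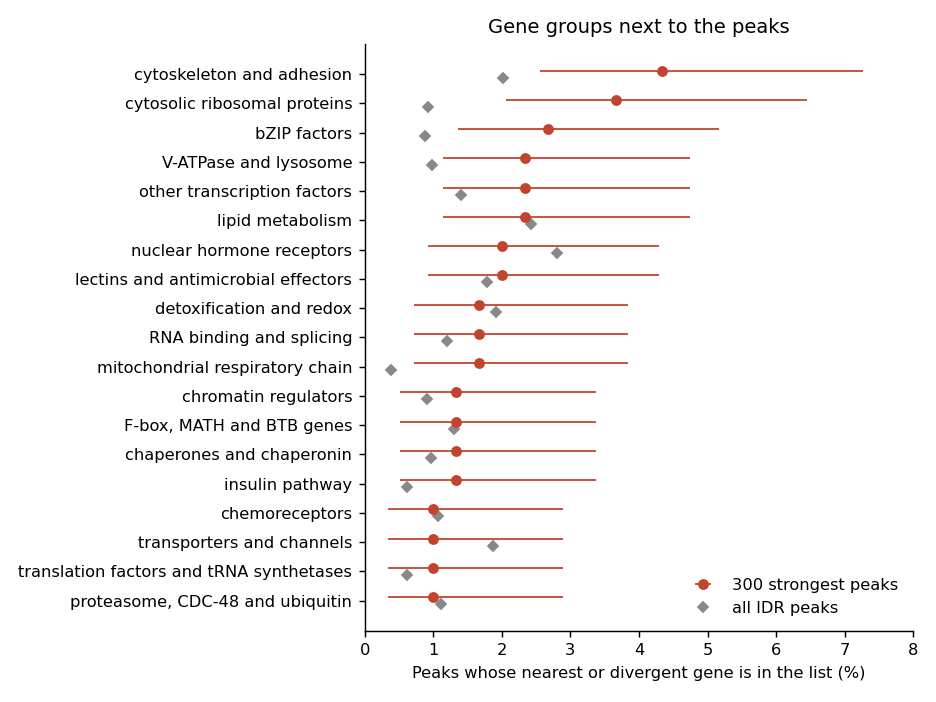
Share of the 300 regions (circles, with 95% Wilson intervals) and of all 7446 IDR peaks (diamonds) beside genes of the 19 lists with 3 or more regions. Cytoskeleton and adhesion genes lead with 4.33% of regions and 2.01% of all IDR peaks, and ribosomal protein genes follow with 3.67% and 0.927%.

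Genes of bZIP factors were beside 8 regions or 2.67% (1.36 to 5.17), against 0.873% of all IDR peaks. They were cebp-1, a C/EBP-family gene needed for axon regrowth, at rank 1, and jun-1 with its 3 regions. xbp-1, of the unfolded protein response, was at rank 63, zip-2, of the response to pathogens, at rank 94, zip-5 at rank 191 and crh-1, the worm CREB gene, at rank 281. The cebp-1 region, chromosome X from 1454407 to 1454846, had signals of 497.7 in replicate 1 and 207.3 in replicate 2, the highest of both lists, and its summit was 781 bp upstream of the start. At xbp-1 the signals were 175.5 and 89.7, and at crh-1 126.7 and 57.6. All 8 were in promoter windows.

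Other regulators of transcription were beside smaller numbers of regions. Nuclear hormone receptor genes had 6 regions or 2.00%, against 2.81% of all IDR peaks, led by nhr-8, a receptor gene of the xenobiotic response, at rank 46 and followed by nhr-50, nhr-291, nhr-3, nhr-41 and nhr-137. Other transcription factor genes had 7 or 2.33%, against 1.41%. These were sma-9 and sma-2 of the TGF-beta path, egrh-1 of the EGR family, sptf-2 of the SP family, lin-1 with 2 regions, and nhl-2, which the list holds by its symbol although it encodes an RNA-binding NHL protein. Chromatin genes had 4 regions or 1.33%, against 0.913%, at egl-27, set-16, a histone methyltransferase gene, set-4, which encodes a methyltransferase of histone H4, and chd-7, a remodeller gene. RNA-binding protein genes had 5 or 1.67%, against 1.20%, led by tiar-2, of the TIA family, at rank 10 and including nhl-2, puf-9, of the Pumilio family, etr-1 and mex-1.

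Cytoskeleton and adhesion genes were beside 13 regions or 4.33% (2.55 to 7.27), against 2.01% of all IDR peaks. After tbb-1 at rank 6 came rho-1, the gene of the small GTPase RhoA, at rank 31 and unc-112 at rank 44. tba-2, cap-1, an actin capping gene, and nmy-1 followed at ranks 59, 71 and 125. The rho-1 region had signals of 213.9 in replicate 1 and 88.2 in replicate 2, and cap-1 had 189.1 and 67.8. The others were mig-10, let-413, a Scribble-family gene of epithelial polarity, erm-1, the ezrin gene, ifb-2, an intestinal intermediate filament gene, spc-1, a spectrin gene, act-1 and act-2. An AP-1 site was in 5 of the 13 or 38.5%, against 11.3% of all 300 regions and 8.67% of the 150 IDR peaks beside the list. They are the same 5 regions counted above among the AP-1 regions, so this is not a separate result. mig-10, the lamellipodin gene, has been reported as a FOS-1 target in the invading anchor cell, and its region at rank 138 lay in an intron with signals of 141.3 in replicate 1 and 75.1 in replicate 2.

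The insulin list had 4 regions or 1.33%, against 0.618% of all IDR peaks, at rsks-1, with 2, and at the insulin-like peptide genes ins-39 and ins-13.

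Regions matched by the lists of protein synthesis and energy supply, which were joined after their values were seen, held none of the searched sites. Cytosolic ribosomal protein genes were beside 11 regions or 3.67% (2.06 to 6.45), against 0.927% of all IDR peaks. rpl-3 at rank 9 had signals of 284.8 in replicate 1 and 133.7 in replicate 2, rpl-15 at rank 15 had 204.7 and 153.2, and rps-1 at rank 52 had 184.7 and 85.2. The others were rpl-20, rpl-35, rps-12, rps-19, rps-20, rps-28, rpl-11.2 and rpl-12. Respiratory chain genes had 5 regions or 1.67% (0.714 to 3.84), against 0.376%, at cox-5A, cox-6B and cox-5B of cytochrome oxidase and at atp-1 and atp-3 of the ATP synthase. The cox-5A region at rank 11 had 275.0 and 129.2.

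Translation factor genes had 3 regions or 1.00%, against 0.618%, at iff-2, the eIF5A gene, eef-1G and eef-1A.1. The list of the proteasome, CDC-48 and ubiquitin also had 3, against 1.11%, at cdc-48.1, an AAA ATPase gene, rpn-3, a proteasome subunit gene, and wwp-1, a ubiquitin ligase gene. The cdc-48.1 region at rank 2 had signals of 314.3 in replicate 1 and 175.5 in replicate 2. Over these 4 lists, all 22 regions were in promoter windows and none held any of the 8 sites. Over all IDR peaks, 160 of the 222 beside the same lists, or 72.1%, held none.

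Regions matched by the lipid metabolism and antimicrobial effector lists, also joined after their values were seen, all held a GATA site. Lipid genes had 7 regions or 2.33%, against 2.42% of all IDR peaks, at ncr-1, lbp-3, a fatty acid binding protein gene, paqr-1, of the adiponectin receptor family, sptl-2 and sptl-3, of sphingolipid synthesis, acs-7 and elo-3. Lectin and antimicrobial genes had 6 or 2.00%, against 1.79%, at clec-78, clec-265, clec-170 and clec-72, C-type lectin genes, pals-17 and the lysozyme gene lys-8. The clec-78 region at rank 26 had signals of 183.1 in replicate 1 and 122.9 in replicate 2. All 13 regions of these lists held a GATA site, compared with 75.7% of the 313 IDR peaks beside the same lists. The lists were joined because of this, and the 3 regions of the transporter list and the 3 of the chemoreceptor list held one too, compared with 67.6% of the IDR peaks beside the transporter list and 60% of those beside the chemoreceptor list.

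V-ATPase and lysosome genes had 7 regions or 2.33%, against 0.980% of all IDR peaks. They were cpr-3, a cathepsin B-like protease gene, at rank 12, vha-1 and vha-8, proton pump genes, asp-13 with 2 regions, scav-6 and lgg-2, an autophagy gene. Detoxification genes had 5 or 1.67%, against 1.92%, at gst-22, wdr-23, whose product holds back the stress factor SKN-1, ugt-43, cyp-14A5 and cyp-13A3. Chaperone genes had 4 or 1.33%, against 0.967%, at dnj-27, dnj-16, hsp-110 and dnj-14. F-box genes also had 4, against 1.30%, at fbxc-29, fbxb-58, fbxc-19 and fbxa-30. Transporter and channel genes had 3 or 1.00%, against 1.87%, at inx-15, swt-7 and nhx-2, a sodium and proton exchanger gene. Chemoreceptor genes had 3, against 1.07%, at srz-62, srh-166 and srlf-7.

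Genes of short structural RNAs were beside 9 regions or 3.00% (1.59 to 5.60), against 5.16% of all IDR peaks. No tRNA gene was within 250 bp of any of the 300 summits, which allows a share of up to 1.26%, against 3.33% of all IDR peaks. snoRNA genes, whose products guide changes to ribosomal RNA, were beside 6 regions or 2.00%, against 1.40%, and the protein-coding genes nearest to these were ska-3, zip-2, cgt-3, cmtr-1, T02E1.2 and tif-1A. snRNA genes were beside 3 or 1.00%, against 0.443%. These 3 were sls-2.1, sls-2.2 and sls-2.4, genes of the SL2 spliced leader that is joined to the downstream messages of operons, at ranks 134, 177 and 204.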

How the data were processed

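The study measured FOS-1 occupancy by ChIP-seq in 2 biological replicates of 1 group. The labels name separate biosamples, and intervals run over peaks. The authors deposited peak lists on ce11 and ce10: a relaxed list for each replicate and for the pooled data, made with a control, and a list passing IDR, per the deposited manifests. Which aligner and caller made them is not given in the sources used here. Signal values are as deposited, on the scale of the authors' caller, with no normalization across lists. The lists further give, as deposited, a summit position and a −log10 q-value by the authors, which is the same for all IDR peaks and was not used further. Read depth is unknown, and the control library was not analysed here.

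From these lists the 300 calls of highest signal were taken with Python scripts using pandas and scipy (versions 2.3.3 and 1.17.1). The nearest gene is the protein-coding gene with the nearest transcript start in Ensembl release 115. Classes were assigned in the order promoter window, coding exon, 5' and 3' untranslated exon, intron, other gene, intergenic. A region's rank in a replicate is that of the strongest call sharing at least 1 bp with it. Shares have 95% Wilson intervals and medians binomial order-statistic intervals. No hypothesis test was made, since the regions were picked on signal. Site searching was tested on simulated windows with planted sites. Gene assignment was tested at annotated transcript starts only, where the nearest start is the queried one. The regions, lists and sites were chosen with earlier results of these data known. Named genes are the nearest genes of ranks 1 to 10 and 21 to 50 and of AP-1 regions. They include those of the strongest up to 6 regions in each list and of the 5 largest ratios between replicate ranks in each direction. Also named are those of regions at the limit, of genes with more than 1 region, and of exonic or intronic regions. Genes named beside GCGCAGGG, E-box, CRE, C/EBP-type sites or short RNA genes, and the full membership of lists, were added after their values were seen. Sequences on chromosome I are not shown. In the lists, nhl-2 and hsr-9 were matched by the pattern of their symbols. Alternatives were other set sizes, single replicates, windows, overlaps and ce10.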

Additional observations from a re-analysis of the deposited data

How the results depend on the processing

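Of 78 recomputed values of 16 results, 55 stayed within the interval of the value reported for the 300 regions. Taking the 300 strongest calls of replicate 1 or of replicate 2 alone moved none outside it, and AP-1 sites were then at 10.3 and 11.3% and the E-box at 1 and 2.33%, against 0.667% for the 300 regions. Site shares changed with the window around the summit. With 25 bp to both sides they were 35% for GATA, 16% for extended GATA, 4.67% for AP-1, 4.33% for the GAGA repeat, 3.67% for GACGCAGA, 0% for the E-box and 53.3% for none of the sites. Over all IDR peaks they were then 34.6% for GATA, 13.4% for extended GATA, 1.63% for AP-1 and 5.35% for the GAGA repeat. GACGCAGA was at 2.91% of all IDR peaks and the E-box at 2.00%. With 100 bp the shares of the 300 regions were 63.3% for GATA, 38.3% for extended GATA, 20.3% for AP-1 and 15% for the GAGA repeat. The E-box was then at 4% and none of the sites at 20.3%. Over all IDR peaks GATA was at 66.7%, extended GATA at 29.6%, AP-1 at 6.20%, the GAGA repeat at 15.9% and the E-box at 6.55%. With the 600 strongest peaks the shares were 57.5% for GATA, 2.5% for the E-box and 26.8% for none of the sites. Over all IDR peaks these were 52.9, 3.98 and 34.2%. Promoter windows held 51.7% of summits with 500 bp upstream and 70.3% with 2000 bp. Short RNA genes lay within 1000 bp of 5.67%. With an overlap of at least 50% of the width required, 54.3% ranked in the top 300 of each replicate. Another region lay within 2000 bp of 4% and within 10000 bp of 14%. GCGCAGGG, whose alternatives were added after the data were seen, was at 6% of the 150 strongest peaks and 1.83% of the 600 strongest. No paired analysis was possible because there is 1 group. The read depth, the absence of a second group and whole-larva chromatin limit what the ranks can show.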

Other observations

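Short sequences other than the searched sites were counted within 50 bp of the summits, on both strands. The 7-mers were picked from those found in at least 8 of the 105 regions without a searched site, ordered by their share there over that in the 7146 other IDR peaks, so the counts are descriptions. TACCGTA lay in 11 of the 300 regions or 3.67%, against 1.33% of all IDR peaks, and in 7 of the 16 regions beside ribosomal protein and respiratory chain genes, compared with 20 of the 97 IDR peaks beside those genes. ACACTCG lay in 10 regions or 3.33%, against 1.25%, and in 5 of the 16, compared with 17 of the 97. ACGCTCC lay in 12 regions, against 1.06%, and in 6 of the 16, compared with 6 of the 97. CTGCGTA lay in 13 regions or 4.33%, against 1.46%, and in 3 of the 16, compared with 13 of the 97. CGCTTGC lay in 11 regions or 3.67%, against 1.34%, and in 2 of the 16, compared with 7 of the 97. Its 11 regions include the 3 beside the SL2 genes, with ZK1248.17, ins-13 and egg-5 as the nearest protein-coding genes. First in the order was GTGGATA, in 9 regions, against 0.349% of all IDR peaks, and in 0 of the 16. Of its 9 regions, those of W02H3.3, Y41G9A.17, xol-1 and ins-39 also hold GCGCAGGG.

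No region was nearest to fos-1 or unc-119, the genes linked to the transgene, or to zmp-1, him-4, cdh-3 or egl-43, which have been linked to FOS-1 in anchor cell invasion. None of the 7446 IDR peaks was nearest to any of these 6 genes.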
